A study of Caenorhabditis elegans with 9 samples.

Results

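The F-box A genes of *Caenorhabditis elegans* were taken as all genes whose WormBase symbol is fbxa followed by a number. With the symbols of pseudogenes taken from RefSeq, this gave 222 of the 31106 genes in the count files, namely 170 protein-coding genes and 52 pseudogenes. A member was counted as expressed when it had 10 or more counts in at least 3 libraries, and 109 of the 222 members were, 83 of them protein-coding and 26 pseudogenes. Polyadenylated RNA of whole 1-day-old adults grown at 20 °C was sequenced from 3 genotypes, with 3 libraries each and 50000 pooled animals per library. The genotypes were *hrde-2(qe20)*, strain FD53, *hrde-1(tm1200)*, strain USC661, and the N2 wild-type, so each mutant was represented by 1 allele in 1 strain. HRDE-1 is a nuclear Argonaute of the germ line that carries small RNAs to nascent transcripts, and HRDE-2 is a germ granule protein needed for HRDE-1 to bind its proper small RNAs. Comparing each mutant with wild-type, and the mutants with each other, asks how transcript levels of the family differ when either protein is impaired.

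F-box proteins are the substrate receptors of SCF ubiquitin ligases. The F-box binds a Skp1-related adaptor, which in turn binds a cullin and its RING subunit, and the C-terminal part of the F-box protein selects the protein to be marked with ubiquitin. In the F-box A family the C-terminal part is usually a FOG-2 homology (FTH) domain, and the family is greatly expanded in nematodes, mostly as clusters of neighbouring copies on chromosome arms. FOG-2, the founding kin of the family, promotes sperm formation in hermaphrodites, and FBXA-75 and FBXA-158 act with the cullin CUL-6 in the intracellular pathogen response, a transcriptional program against microsporidia and viruses. For the great majority of members no role was given in the sources used here, so they are described below by position, level and difference.

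Members lay on all 6 chromosomes but unevenly. Chromosome V held 92 members, of which 44 were expressed, and chromosome III held 73, of which 35 were expressed. The other chromosomes held 21 members (chromosome II, 9 expressed), 17 (chromosome X, 7 expressed), 13 (chromosome I, 11 expressed) and 6 (chromosome IV, 3 expressed). When members that start within 20 kb of the next member were joined into runs, 164 members fell into 32 runs of 2 or more and 58 members stood alone. The longest run held 33 members, 18 of them expressed, between positions 1236015 and 1349400 of chromosome III. A run of 17 members on the same chromosome, between 2217173 and 2314073, had 3 expressed members, and a run of 12 between 933585 and 963679 had 8. Among the 113 members that were not expressed, 33 had 0 counts in all 9 libraries and 80 had some count. At the edge of the rule, *fbxa-218* entered with 13, 14 and 15 counts in *hrde-2*, and *fbxa-48* stayed out with 26, 8 and 12 counts in *hrde-1*. *fbxa-224* also stayed out, with 16, 20 and 2 counts in *hrde-2*, 3, 6 and 5 counts in *hrde-1* and 0 in each wild-type library, which allows up to 3 counts a library. Reads that map to several places were not counted by the authors, so levels of members with near-identical copies are uncertain, and how much of each member is unique was not analysed here.

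Depth ranged between 5801326 and 11884233 counts per library, of which ribosomal RNA genes took 19.35% to 31.4%. Levels are given as CPM, counts per 1000000 counts of the library size scaled by the trimmed mean of M-values, and as CPM per kb of exon length where genes are compared. The transcript of *hrde-1* was at 108, 129 and 144 CPM in the *hrde-1* libraries, against 200.4, 355 and 301 CPM in wild-type, and that of *hrde-2* was at 14.3, 15.6 and 19.3 CPM in the *hrde-2* libraries, against 22.95, 52.1 and 42.3 CPM in wild-type. Wild-type replicate 1 stood apart from the other wild-type libraries. Its 31 major sperm protein genes, the markers of sperm, summed to 366 CPM, against 103 and 86.5 CPM in the other wild-type libraries, and its 13 oocyte and eggshell genes summed to 3350.0 CPM, against 8023 and 7115 CPM. Sperm markers summed to 1074 to 1198 CPM in *hrde-2* and 306 to 458 CPM in *hrde-1*, against 86.5 to 366 CPM in wild-type. Intestine markers (9 genes, among them the vitellogenins) summed to 27830.0 to 43460.0 CPM in *hrde-2* and 55060.0 to 92780.0 CPM in *hrde-1*, against 48610.0 to 66690.0 CPM in wild-type. Germ line markers (6 genes) were at 1604 to 2109 CPM in *hrde-2*, 1110 to 1556 in *hrde-1* and 908 to 1461 in wild-type. In the same order, body muscle markers (4 genes) were at 459.5 to 1177, 897 to 3555 and 1196 to 1877 CPM. Neuron markers (5 genes) were at 108 to 117, 129 to 144 and 122 to 136.5 CPM. Epidermis markers (4 genes) overlapped between all genotypes. No gene of these marker lists was at 0 in all libraries. In whole worms, fewer cells of a type and less RNA per cell cannot be told apart, and the part of tissue composition in the results below was not tested.

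Most expressed members were transcribed at a low level. The median member tested stood at 3.09 CPM per kb in wild-type, against 11.0 CPM per kb for all 12141 genes tested, and 11 of the 111 members tested were above the median of all genes. Expressed protein-coding members had a median of 2.34 CPM per kb in *hrde-2*, 3.23 in *hrde-1* and 3.30 in wild-type, and expressed pseudogenes had a median of 1.56 CPM per kb in *hrde-2*, 2.12 in *hrde-1* and 2.35 in wild-type. *fbxa-215* (chromosome IV, 13665345 to 13666909) had the highest level per length, at 89.8 ± 15.3 CPM per kb in *hrde-2*, 111 ± 3.27 in *hrde-1* and 130.2 ± 61.3 in wild-type (mean ± SD, n = 3 each). By library it stood at 111, 110.1 and 147 CPM in *hrde-2* and 152, 156 and 147 CPM in *hrde-1*, against 84.3, 246 and 203 CPM in wild-type. The *hrde-2* and *hrde-1* values both lay inside the wild-type range, which was wide because wild-type replicate 1 was far below the others. This gene alone made up 20.1% of the summed level of the family in *hrde-2*, 20.3% in *hrde-1* and 21.6% in wild-type.

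**Figure D1:**
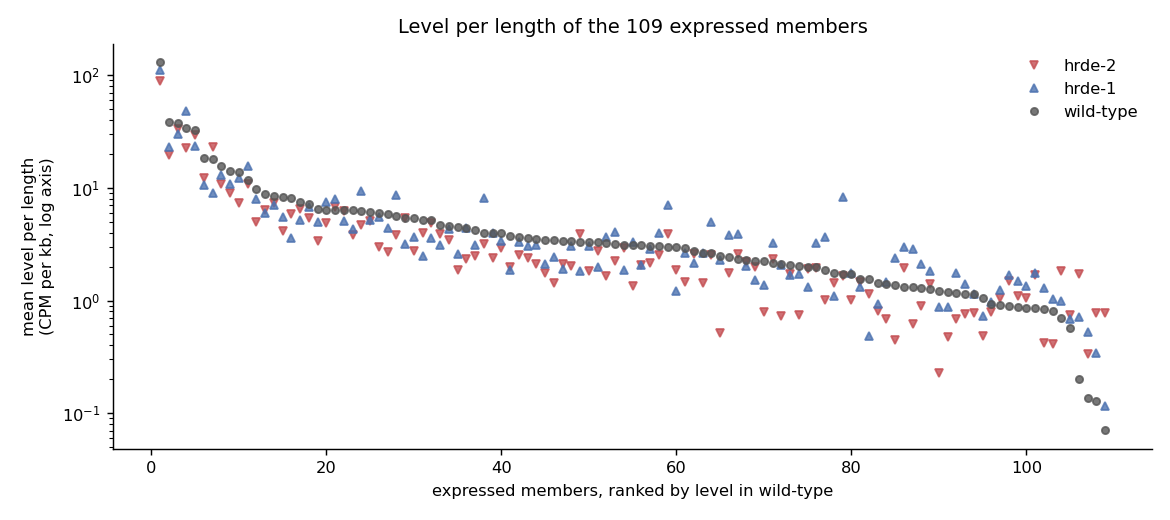
Mean level per length (CPM per kb, log axis) of the 109 expressed F-box A members, ranked by their wild-type level, with *hrde-2* as downward triangles, *hrde-1* as upward triangles and wild-type as circles. *fbxa-215* stands alone at the left at 130 CPM per kb in wild-type, and most members lie between 1 and 10 CPM per kb.

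After *fbxa-215* came 7 members that were far lower but well above the family median. In wild-type *fbxa-206* stood at 38.3 ± 1.21, *fbxa-210* at 37.5 ± 3.56, *fbxa-60* at 33.9 ± 11.7 and *fbxa-101* at 32.5 ± 5.999 CPM per kb (mean ± SD, n = 3), and these neighbours in the order did not differ beyond their spread. Then followed *fbxa-114* at 18.6 ± 5.01, *fbxa-72* at 17.99 ± 11.4 and *fbxa-197* at 15.8 ± 0.797 CPM per kb, again with overlapping spreads. Of these, *fbxa-210* was among the steadiest members, with 42.3, 45.1 and 46.8 CPM in *hrde-2* and 33.6, 43.97 and 42.9 CPM in *hrde-1*, against 44.5, 51.6 and 53.4 CPM in wild-type. *fbxa-72* was among the least steady, with 30.6, 31.9 and 19.7 CPM in *hrde-2* and 5.43, 10.9 and 15.9 CPM in *hrde-1*, against 36.8, 15.1 and 12.003 CPM in wild-type, and its highest wild-type value was again that of replicate 1.

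With TMM scaling the summed level of all members was lowest in *hrde-2*. It was 600.1, 610.5 and 618 CPM in *hrde-2* (609.7 ± 9.23, mean ± SD), 769.8, 781 and 685 CPM in *hrde-1* (745 ± 52.4), against 743.5, 893 and 834 CPM in wild-type (823 ± 75.4, n = 3 each). The 3 *hrde-2* libraries lay below all libraries of the other genotypes, whereas *hrde-1* and wild-type overlapped. Without *fbxa-215* the sums were 487 ± 14.4 CPM in *hrde-2* and 594 ± 48.2 CPM in *hrde-1*, against 646 ± 14.3 CPM in wild-type, and then the *hrde-1* libraries, at 618, 625 and 538 CPM, also lay below those of wild-type, at 659, 647 and 631 CPM. The separation depended on the scaling. With library size alone *hrde-2*, at 565 to 684 CPM, still lay below wild-type, at 720.6 to 945 CPM, but overlapped *hrde-1*, at 674 to 779 CPM. With ribosomal RNA genes removed and no further scaling, *hrde-2*, at 824 to 906 CPM, overlapped both *hrde-1*, at 905 to 1057 CPM, and wild-type, at 901 to 1172 CPM. Without *fbxa-215* the *hrde-2* libraries stayed below wild-type under all 3 scalings, whereas they overlapped *hrde-1*, and *hrde-1* overlapped wild-type, under both of the others. These sums are a description and were not tested.

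The *hrde-2* mutant showed a broad shift of the family to lower values with few single members past the test. In *hrde-2* against wild-type, edgeR's quasi-likelihood test with Benjamini-Hochberg adjustment called 3 members lower and 2 higher of the 111 tested. Over all genes tested, 4.25% were called lower and 7.57% higher, 11.8% in all. Fold changes were above 0 in 19 members and below 0 in 92, and 43.4% of all genes tested were above 0. The median log2 fold change was -0.50 over the members tested and -0.10 over all genes tested. The 3 *hrde-2* libraries all lay below the 3 wild-type libraries in 32 members and all above them in 5, where 16.5% of all genes tested lay below and 15.7% above. At an unadjusted p under 0.05, 23 members were lower and 4 higher, where the shares over all genes tested were 14.3% and 13.5%. Pseudogenes and protein-coding members had close medians, -0.50 over 26 pseudogenes and -0.51 over 85 protein-coding members. No pseudogene was called by edgeR or by DESeq2, and 5 were lower at an unadjusted p under 0.05. Without wild-type replicate 1 the test called 9 members lower and 4 higher, with 22.3% of all genes called in either direction, and 4 of the 5 calls made with all libraries were among them. The added members were *fbxa-179*, *fbxa-170*, *fbxa-153*, *fbxa-192*, *fbxa-215*, *fbxa-108* and *fbxa-114*, all lower, and *fbxa-202* and *fbxa-224*, both higher and both at 0 counts in the wild-type libraries left, and the member lost was *fbxa-65*. Among the members called higher, *fbxa-202*, *fbxa-218* and *fbxa-224* reached 10 counts only in *hrde-2* libraries, the group in which they are high. Their calls add nothing to those counts. The same holds for *fbxa-196*, which reached 10 counts in only 1 library outside *hrde-2*. Without wild-type replicate 1 *fbxa-215* had a log2 fold change of -0.79 and an edgeR adjusted p of 0.00387, against -0.54 and 0.276 with all libraries.

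*fbxa-206*, on chromosome V at 16917196 to 16918478, gave the clearest decrease among the members. It stood at 24.5, 20.8 and 23.4 CPM in *hrde-2*, against 45.2, 43.7 and 46.6 CPM in wild-type. All *hrde-2* libraries were below all wild-type libraries, which agreed closely with each other. The log2 fold change was -0.98 ± 0.19 (SE), with an adjusted p of 0.00582 in edgeR, and the call held in every alternative run. *fbxa-206* belongs to a run of 11 members of which 3 were expressed, and its expressed neighbours *fbxa-207* and *fbxa-90* had log2 fold changes of -0.20 and -0.57, neither of them called. The gene *hrde-2* lies 1.91 Mb away on the same chromosome, and the part of linked sequence was not tested.

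*fbxa-128* and *fbxa-65* were the other members called lower in *hrde-2*, both at modest levels. *fbxa-128* (chromosome III, 11136802 to 11138905) stood at 1.39, 2.27 and 1.98 CPM in *hrde-2*, against 4.59, 4.46 and 4.48 CPM in wild-type. Here too the genotypes did not overlap, and the log2 fold change was -1.25 ± 0.36 (SE) with an edgeR adjusted p of 0.0396. *fbxa-65* (chromosome V, 3345307 to 3346484) stood at 4.81, 4.96 and 3.80 CPM in *hrde-2*, against 9.31, 9.69 and 8.06 CPM in wild-type. Its log2 fold change was -0.9985 ± 0.30 (SE), and its edgeR adjusted p of 0.0498 was just inside the threshold of 0.05. Both calls were fragile. That of *fbxa-128* was lost when any library other than wild-type replicate 1 was left out (adjusted p 0.0524 to 0.186), and that of *fbxa-65* when any library other than *hrde-1* replicate 1 was left out (adjusted p 0.0560 to 0.158).

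The 2 members called higher in *hrde-2* were nearly silent in wild-type. *fbxa-196* (chromosome V, 6448656 to 6450217) had 16, 40 and 21 counts in *hrde-2*, against 2, 4 and 1 counts in wild-type, or 1.71, 3.36 and 1.74 CPM against 0.262, 0.343 and 0.179 CPM. The log2 fold change was 2.99 ± 0.63 (SE) with an edgeR adjusted p of 0.00835, and without *hrde-2* replicate 2, its highest library, the adjusted p was 0.0506. *fbxa-218* (chromosome III, 12436552 to 12441056) had 13, 14 and 15 counts in *hrde-2*, against 2, 1 and 0 counts in wild-type. With wild-type counts under the floor of 3 counts a library, its level in *hrde-2* was at least 2.36-fold higher than the highest wild-type floor of 0.537 CPM, and the edgeR adjusted p was 0.0293. *fbxa-218* passed the filter on low counts only through the *hrde-2* libraries, the group in which it is high, so its counts are given as a description and its p adds nothing to them. *fbxa-196* reached 10 counts in just 1 library outside *hrde-2*, *hrde-1* replicate 2. It too reached 10 counts in at least 3 libraries only through *hrde-2*, so its p likewise adds nothing to its counts. The call of *fbxa-218* was lost without wild-type replicates 2 or 3, *hrde-1* replicate 3 or any *hrde-2* library (adjusted p 0.05004 to 0.102). *fbxa-202*, also on chromosome V, had a pattern of the same kind, with 10, 13 and 12 counts in *hrde-2* and 4, 0 and 0 counts in wild-type. It too reached 10 counts in the *hrde-2* libraries alone, so these counts are a description. It was not called with all libraries, and its call without wild-type replicate 1 sets *hrde-2* against wild-type libraries that are all at 0.

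Some larger differences in *hrde-2* were not called. The lowest fold changes belonged to *fbxa-121* (-2.24), *fbxa-6* (-2.24), *fbxa-87* (-1.60), *fbxa-18* (-1.54) and *fbxa-57* (-1.50, all on the log2 scale), with edgeR adjusted p between 0.0620 and 0.193. *fbxa-6*, at the left end of chromosome III, had 5, 11 and 5 counts in *hrde-2*, against 41, 27 and 7 counts in wild-type, where replicate 1 was again the highest. Its edgeR adjusted p was 0.0620, and it passed the threshold by DESeq2 (0.0237). Among the highest fold changes, after the members described above, were *fbxa-42* (1.32) and *fbxa-187* (1.10), with edgeR adjusted p of 0.116 and 0.493.

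**Figure D2:**
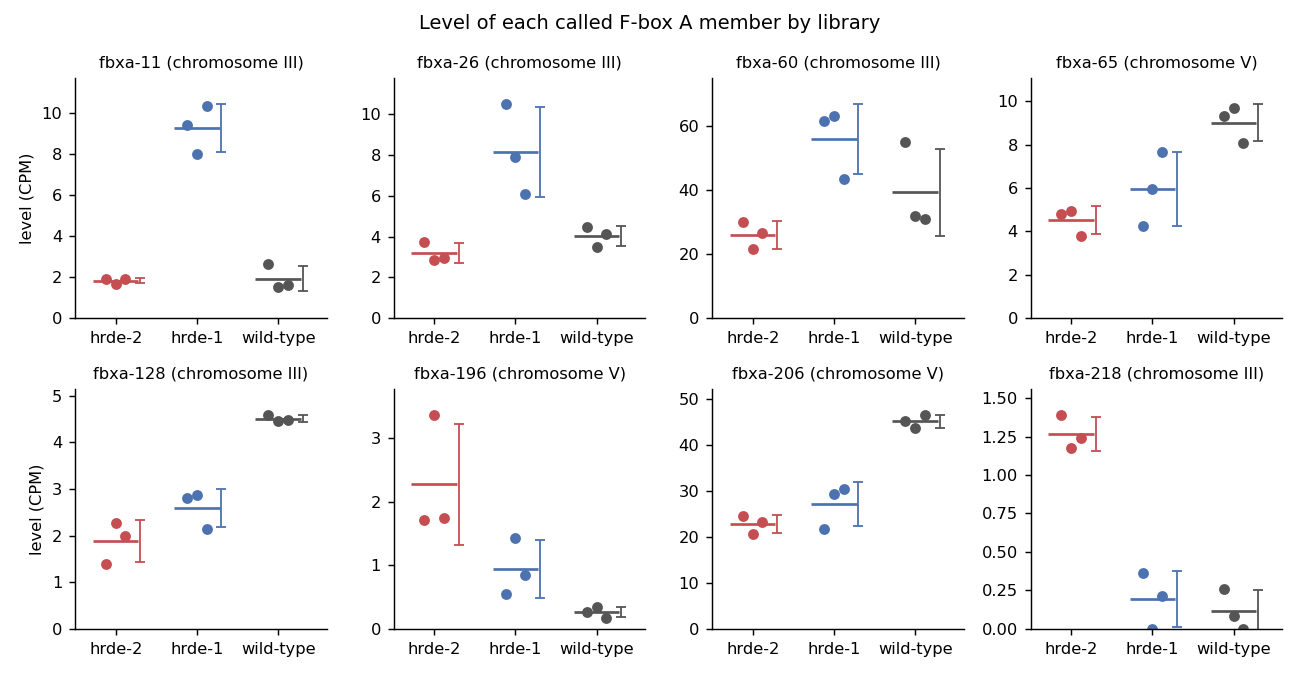
Level (CPM) of the 8 F-box A members called in any of the 3 comparisons, by library, with *hrde-2*, *hrde-1* and wild-type along the axis of each panel. Points are libraries, horizontal lines are means and bars are 1 SD (n = 3 each). *fbxa-11* stands at 8.01 to 10.3 CPM in *hrde-1* and under 3 CPM elsewhere, and *fbxa-206* is lower in all 3 *hrde-2* libraries than in any wild-type library.

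In *hrde-1* the median of the family lay nearer to that of all genes, and 1 member passed the test. In *hrde-1* against wild-type, edgeR called 1 member higher and 0 lower of the 111 tested, where 1.24% of all genes tested were called higher and 0.313% lower, 1.55% in all. At an unadjusted p under 0.05, 5 members were higher and 12 lower, where 9.69% and 8.56% of all genes tested were. DESeq2 called 1 higher and 1 lower, with 4.67% of all genes called in either direction. The *hrde-1* libraries lay above all wild-type libraries in 9 members and below them in 15, against 12.8% and 9.96% of all genes tested. Fold changes were above 0 in 46 members and below 0 in 65, and 47.7% of all genes tested were above 0. The median log2 fold change was -0.15 over the members tested and -0.03 over all genes tested, and without wild-type replicate 1 the median of the members was 0.01. The choice of wild-type libraries also decided the number of calls. Without wild-type replicate 1, 6 members were called higher and 7 lower, with 13.2% of all genes called in either direction, and 1 of these 13 was called with all libraries. Besides *fbxa-11* they were *fbxa-60*, *fbxa-67*, *fbxa-26*, *fbxa-55* and *fbxa-202*, higher, and *fbxa-93*, *fbxa-123*, *fbxa-122*, *fbxa-114*, *fbxa-206*, *fbxa-101* and *fbxa-215*, lower. *fbxa-202* had only 8, 3 and 3 counts in *hrde-1*, against 0 counts in the wild-type libraries left. It reached 10 counts in *hrde-2* libraries alone. Over these 13 the edgeR adjusted p then lay between 6.8e-04 and 0.0440. *hrde-1* and *hrde-2* were set against the same wild-type libraries, so their differences are not independent. Values were below 0 in both mutants for 63 members, above 0 in both for 17, above 0 in *hrde-1* and below 0 in *hrde-2* for 29, and the reverse for 2.

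*fbxa-11* was the member called higher in *hrde-1*. It lies on chromosome III at 950869 to 952264 in the run of 12 members, and had 9.41, 8.01 and 10.3 CPM in *hrde-1*, against 2.62, 1.54 and 1.61 CPM in wild-type. In *hrde-2* it stood at 1.93, 1.68 and 1.90 CPM, inside the wild-type range. The *hrde-1* libraries lay above all 6 others, with a log2 fold change of 2.26 ± 0.34 (SE) against wild-type and an edgeR adjusted p of 0.00399. The mutants also differed from each other, with a log2 fold change of -2.33 ± 0.34 (SE) in *hrde-2* against *hrde-1* and an adjusted p of 0.00300, and both calls held in every alternative run. The adjacent member *fbxa-67*, on the other strand, stood at 10.1, 11.6 and 12.4 CPM in *hrde-1*, against 10.4, 6.26 and 6.09 CPM in wild-type (log2 fold change 0.58, edgeR adjusted p 0.306). On its other side *fbxa-10*, transcribed from the same strand, stood at 1.90, 1.31 and 0.426 CPM in *hrde-1*, against 0.787, 1.37 and 0.537 CPM in wild-type. Neither neighbour was called with all libraries. The 3 genes of other families tested within the run were not called either, and their median was -0.81 on the log2 scale. The gene *hrde-1* lies 3.22 Mb from *fbxa-11* on the same chromosome, and the part of linked sequence was not tested.

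Other members with large differences in *hrde-1* were not called with all libraries. *fbxa-55*, the first member of the same run, had 8.05, 7.29 and 5.01 CPM in *hrde-1*, against 4.85, 2.49 and 1.25 CPM in wild-type, with a log2 fold change of 1.22 (edgeR adjusted p 0.174). *fbxa-196*, *fbxa-187* and *fbxa-202* on chromosome V had log2 fold changes of 1.71, 1.69 and 1.45, each on at most 12 counts in any *hrde-1* library. At the other end were *fbxa-93*, *fbxa-84*, *fbxa-123*, *fbxa-122* and *fbxa-18*, with log2 fold changes between -1.66 and -1.07 and edgeR adjusted p between 0.107 and 0.431. *fbxa-93* shares 319 of its 1649 exon bases with W09G3.1 on the other strand. Since counting ignored strand and dropped reads on more than 1 gene, reads over these bases were not counted for it. *fbxa-206* stood at 21.7, 29.3 and 30.5 CPM in *hrde-1*, against 45.2, 43.7 and 46.6 CPM in wild-type, all lower, with a log2 fold change of -0.73 and an edgeR adjusted p of 0.0853 (0.0255 without wild-type replicate 1, and 0.0237 by DESeq2).

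Set directly against each other, the mutants differed in 3 members, all lower in *hrde-2*. In *hrde-2* against *hrde-1*, edgeR called 0 members higher and 3 lower of the 111 tested, where 3.22% of all genes tested were called higher and 2.45% lower, 5.67% in all. At an unadjusted p under 0.05, 5 members were higher and 21 lower, where 9.81% and 10.2% of all genes tested were. DESeq2 called 1 higher and 10 lower, with 9.45% of all genes called in either direction. The median log2 fold change was -0.41 over the members tested and -0.01 over all genes tested, with 32 members above 0 and 79 below, where 49.2% of all genes tested were above 0. The *hrde-2* libraries lay above all *hrde-1* libraries in 12 members and below them in 31, against 16.8% and 15.8% of all genes tested. All 3 called members, *fbxa-11*, *fbxa-60* and *fbxa-26*, lie on the left part of chromosome III. Between the mutants, libraries of the same replicate number deviated weakly together (correlations of 0.114 to 0.249), and the labels do not say that they pair. When only the mutants were fitted and this number was blocked, a choice made after seeing the data, 10 members were called lower and 1 higher of 100 tested, where 16.6% of all genes were called in either direction. These 3 were among them, with edgeR adjusted p of 4.65e-04 for *fbxa-11*, 0.00127 for *fbxa-60* and 0.00910 for *fbxa-26*. The others were *fbxa-162*, *fbxa-6*, *fbxa-24*, *fbxa-97*, *fbxa-192*, *fbxa-14* and *fbxa-67*, lower, with adjusted p between 0.00767 and 0.0487, and *fbxa-218*, higher. Without the block the same 6 libraries gave 7 lower and 1 higher, with 11.8% of all genes called. Wild-type replicate 1 enters this contrast only through the shared estimate of spread, the scaling and the filter. Without it 10 were called lower and 2 higher, with 12.9% of all genes called, and these 3 were among them. In each of these runs *fbxa-218* was among the members called higher. It reached 10 counts only in *hrde-2* libraries, the group in which it is high, so its calls add nothing to its counts. The same limit holds for *fbxa-48*, called lower without wild-type replicate 1, which reached 10 counts only in *hrde-1* libraries.

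*fbxa-60* (chromosome III, 944795 to 946298), the highest member of its run, had 29.96, 21.4 and 26.6 CPM in *hrde-2*, against 61.3, 62.8 and 43.4 CPM in *hrde-1*. Wild-type stood at 54.9, 31.98 and 30.99 CPM, with replicate 1 inside the *hrde-1* range and the others just above *hrde-2*. The log2 fold change in *hrde-2* against *hrde-1* was -1.10 ± 0.26 (SE) with an edgeR adjusted p of 0.0293, and neither mutant was called against wild-type. *fbxa-26* (chromosome III, 1340597 to 1342494), in the run of 33 members, had 3.74, 2.86 and 2.97 CPM in *hrde-2*, against 10.5, 7.89 and 6.08 CPM in *hrde-1*, while wild-type stood at 4.46, 3.52 and 4.12 CPM. The mutants did not overlap, with a log2 fold change of -1.36 ± 0.32 (SE) and an edgeR adjusted p of 0.0305. Leaving out *hrde-1* replicate 1 or 2 or any *hrde-2* library ended both calls, with an adjusted p between 0.0813 and 0.160 for *fbxa-60* and between 0.0881 and 0.151 for *fbxa-26*. Members with larger differences but fewer counts were not called. *fbxa-87*, *fbxa-162*, *fbxa-6* and *fbxa-24* had log2 fold changes of -2.38, -2.20, -2.14 and -1.86 with edgeR adjusted p between 0.0548 and 0.103, and of these *fbxa-162*, *fbxa-6* and *fbxa-24* were called with the block. Their levels varied widely within *hrde-1*. *fbxa-24*, for example, stood at 1.60, 1.85 and 1.16 CPM in *hrde-2*, against 10.1, 4.42 and 2.13 CPM in *hrde-1*. At the other end, *fbxa-72* stood at 30.6, 31.9 and 19.7 CPM in *hrde-2*, against 5.43, 10.9 and 15.9 CPM in *hrde-1* (log2 fold change 1.36, edgeR adjusted p 0.0939).

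**Figure D3:**
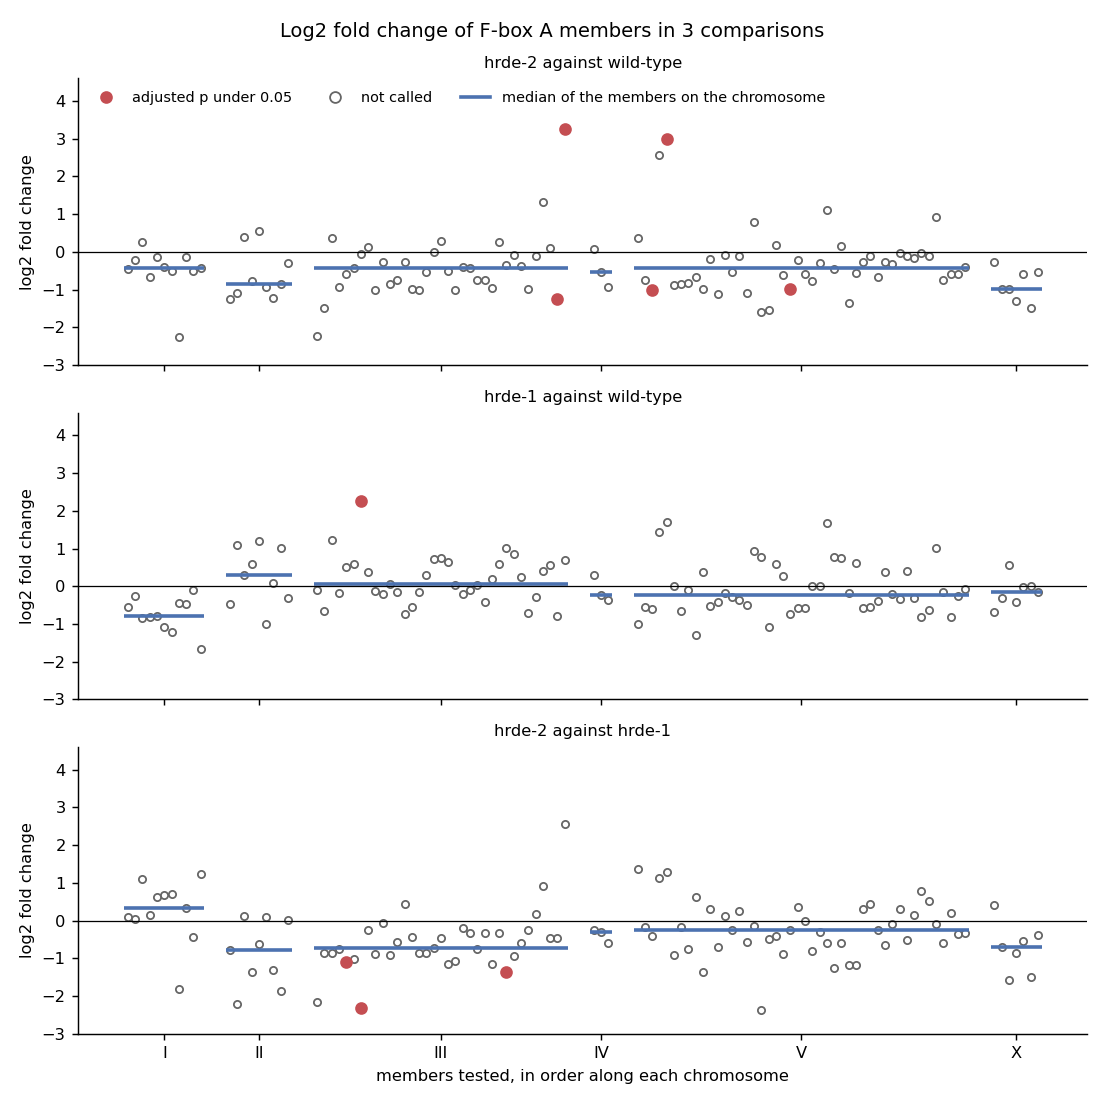
Log2 fold change of the 111 F-box A members tested, in order along each chromosome, in *hrde-2* against wild-type (top), *hrde-1* against wild-type (middle) and *hrde-2* against *hrde-1* (bottom). Filled points are members called at an adjusted p under 0.05 and horizontal lines are the medians of the members on a chromosome. In the middle panel all 11 members on chromosome I lie below 0, and in the bottom panel 31 of 35 on chromosome III do.

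The pattern of differences varied between chromosomes. On chromosome I, the 11 members tested were all below 0 in *hrde-1* against wild-type, with a median log2 fold change of -0.77 against -0.04 for the 2104 other genes tested there, and this held without wild-type replicate 1 (11 of 11, median -0.66). With all libraries edgeR called 0 of the 11, DESeq2 called 0, and 6 of the 11 were lower at an unadjusted p under 0.05, where 8.56% of all genes tested were. In *hrde-2* against wild-type 10 of the 11 were below 0 with a median of -0.43. The chromosome I members summed to 75.5, 73.4 and 77.7 CPM in *hrde-2* and 58.7, 64.5 and 55.9 CPM in *hrde-1*, against 70.0, 104 and 93.3 CPM in wild-type, so the *hrde-1* libraries were the lowest of the 9, as they were with library size alone. With ribosomal RNA genes removed they were at 73.8 to 87.3 CPM and overlapped wild-type, at 84.9 to 137 CPM. The largest contributor was *fbxa-101*, at 33.6, 34.3 and 34.9 CPM in *hrde-2* and 25.7, 31.4 and 24.3 CPM in *hrde-1*, against 30.03, 43.6 and 39.2 CPM in wild-type. Next to each other in 1 run lie the pseudogenes *fbxa-124*, *fbxa-122* and *fbxa-123*, and *fbxa-123* stood at 5.88, 4.96 and 5.04 CPM in *hrde-2* and 4.61, 2.03 and 2.98 CPM in *hrde-1*, against 3.15, 11.3 and 7.70 CPM in wild-type.

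On chromosome III the order of the mutants was the opposite. In *hrde-2* against *hrde-1* the median over its 35 members tested was -0.73 on the log2 scale, with 31 below 0, where the 1983 other genes tested on the chromosome had a median of 0.05. Against wild-type the median was -0.43 in *hrde-2*, with 28 of 35 below 0, and 0.06 in *hrde-1*, with 15 of 35 below 0. Their summed level was 121, 122 and 109 CPM in *hrde-2* and 232, 217 and 167 CPM in *hrde-1*, against 223, 142 and 148 CPM in wild-type. The *hrde-2* libraries were thus the lowest, also with library size alone and with ribosomal RNA genes removed, and wild-type replicate 1 lay among the *hrde-1* libraries rather than beside the other wild-type libraries. Without wild-type replicate 1 the median in *hrde-1* against wild-type was 0.48 with 30 of 38 members above 0, against 0.06 with 20 of 35 above 0 with all libraries. In the run of 33 members, 17 of the 18 tested were below 0 in *hrde-2* against *hrde-1*, with a median of -0.74 and summed levels of 41.7, 43.2 and 33.9 CPM in *hrde-2*, against 77.7, 68.1 and 47.8 CPM in *hrde-1* (46.9 to 64.1 CPM against 63.1 to 101 CPM, an overlap, with ribosomal RNA genes removed). In the run of 12, all 8 tested were below 0, with a median of -0.87 and summed levels of 59.7, 52.6 and 52.3 CPM in *hrde-2*, against 116, 118 and 94.2 CPM in *hrde-1*. *hrde-1* itself lies on chromosome III, and the intestine markers were lower in *hrde-2* than in *hrde-1* in the same libraries. The part of either in this pattern was not tested.

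**Figure D4:**
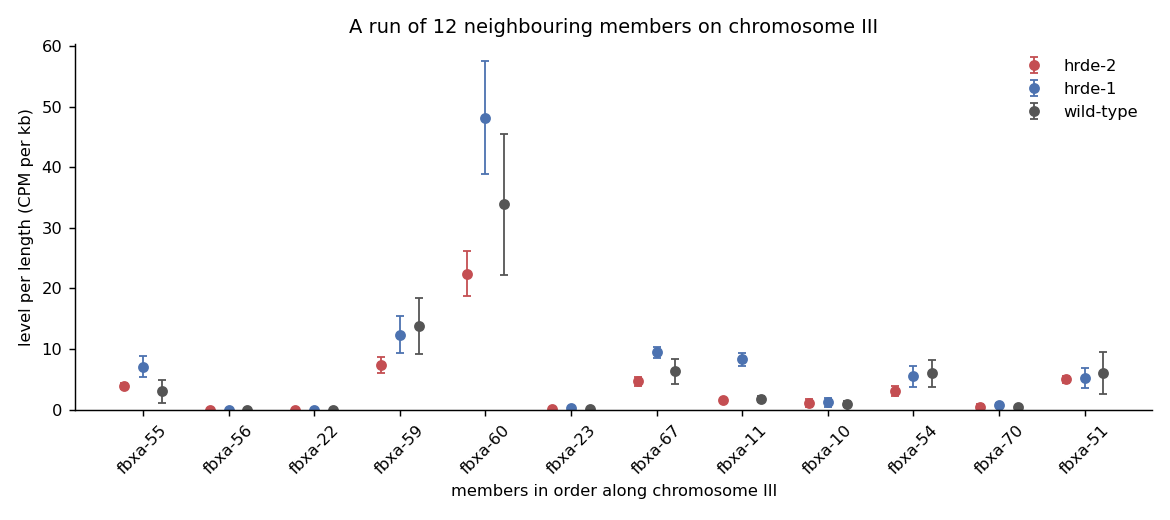
Level per length (CPM per kb) of the 12 members of the run at positions 933585 to 963679 of chromosome III, in their order along the chromosome, as means with bars of 1 SD (n = 3) in *hrde-2*, *hrde-1* and wild-type. *fbxa-60* has the highest level, *fbxa-11* is higher in *hrde-1* than in the other genotypes, and *fbxa-56* and *fbxa-22* are at 0 in all libraries.

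The remaining chromosomes gave smaller sets. On chromosome V the 46 members tested had medians of -0.44 in *hrde-2* and -0.23 in *hrde-1* against wild-type, and their summed levels were 243, 261 and 246 CPM in *hrde-2* and 252, 269.8 and 259 CPM in *hrde-1*, against 306, 334 and 319.6 CPM in wild-type. Both mutants lay below wild-type there in every library, and the mutants overlapped each other. With ribosomal RNA genes removed *hrde-2*, at 334 to 387 CPM, overlapped wild-type, at 371 to 438 CPM, and *hrde-1* did not. On chromosome X the 7 members tested were all below 0 in *hrde-2* against wild-type, with a median of -0.99, while the 1618 other genes tested on X also had a negative median, -0.31. *fbxa-170*, the highest of the 7 by CPM in wild-type, stood at 8.77, 5.97 and 8.18 CPM in *hrde-2* and 10.7, 14.9 and 11.3 CPM in *hrde-1*, against 6.56, 21.6 and 17.02 CPM in wild-type, so that wild-type replicate 1 lay among the *hrde-2* libraries while the other wild-type libraries were the highest of all. Chromosome II had 9 members tested, with medians of -0.85 in *hrde-2* and 0.29 in *hrde-1* against wild-type. On chromosome IV the sum followed *fbxa-215*.

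**Figure D5:**
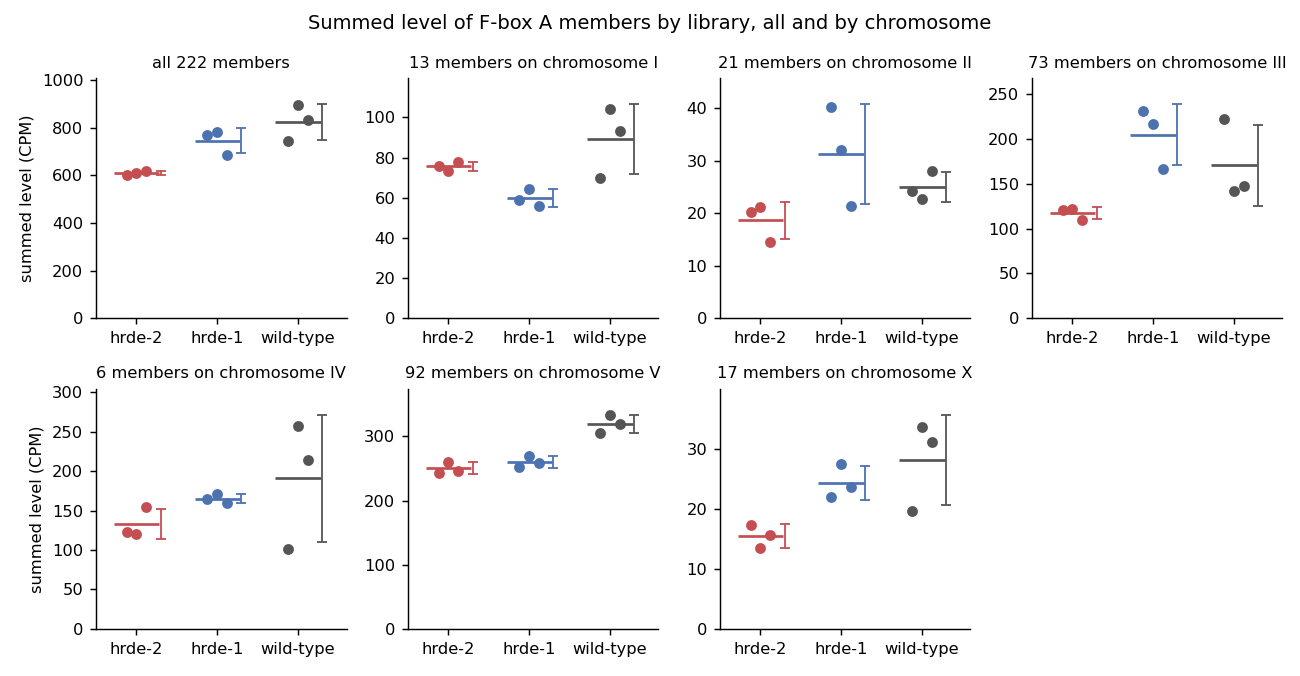
Summed level (CPM) of all 222 F-box A members and of the members on each chromosome, by library, with *hrde-2*, *hrde-1* and wild-type along the axis of each panel. Points are libraries, horizontal lines are means and bars are 1 SD (n = 3 each). On chromosome III the *hrde-2* libraries are at 109 to 122 CPM and wild-type replicate 1, at 223 CPM, lies with the *hrde-1* libraries.

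Members with published roles in the intracellular pathogen response were low and were not called. *fbxa-75* had 0 counts in 8 libraries and 4 counts in *hrde-1* replicate 1, and was not expressed by the rule. *fbxa-158* stood at 1.28, 0.924 and 0.413 CPM in *hrde-2* and 0.543, 1.79 and 0.107 CPM in *hrde-1*, against 1.57, 0.0857 and 0.358 CPM in wild-type, under 2 CPM in every library. *fbxa-182*, which is induced in that response, stood at 4.28, 4.71 and 3.55 CPM in *hrde-2* and 8.41, 7.89 and 3.09 CPM in *hrde-1*, against 2.36, 2.49 and 3.76 CPM in wild-type. Its log2 fold change was 1.19 ± 0.41 (SE) in *hrde-1* and 0.56 ± 0.41 (SE) in *hrde-2* against wild-type, with edgeR adjusted p of 0.170 and 0.410. Replicates 1 and 2 of *hrde-1* lay above all wild-type libraries and replicate 3 lay among them.

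Among partners and kin of the family a few genes passed the test. Of 30 genes of the SCF ligase (cullins, RING subunits, Skp1-related adaptors and conserved F-box receptors), 28 were tested, and edgeR called 2 lower and 0 higher in *hrde-2* against wild-type, with 1 higher and 6 lower at an unadjusted p under 0.05 and 2 lower and 0 higher by DESeq2. Over all genes tested, 4.25% were called lower and 7.57% higher, and 14.3% and 13.5% were at an unadjusted p under 0.05. DESeq2 called 16% of all genes in either direction. The median of the 28 was -0.24 on the log2 scale, with 19 below 0. In *hrde-2* against *hrde-1*, edgeR called 1 lower and DESeq2 3, with 5 lower at an unadjusted p under 0.05. Both are Skp1-related adaptors. *skr-4*, which acts with CUL-6, stood at 8.77, 10.0 and 6.53 CPM in *hrde-2* and 17.9, 19.6 and 12.3 CPM in *hrde-1*, against 21.1, 17.1 and 19.2 CPM in wild-type. It was lower in *hrde-2* than in wild-type, with a log2 fold change of -1.18 ± 0.26 (SE) (edgeR adjusted p 0.0111), and than in *hrde-1*, with -0.98 ± 0.26 (SE) (adjusted p 0.0460). *skr-21* stood at 2.14, 0.504 and 1.24 CPM in *hrde-2*, against 4.59, 3.86 and 4.30 CPM in wild-type, with a log2 fold change of -1.73 (edgeR adjusted p 0.0312). None of the 28 was called in *hrde-1* against wild-type by edgeR or DESeq2, where they called 1.55% and 4.67% of all genes in either direction. At an unadjusted p under 0.05, 2 were lower and 0 higher, where 8.56% and 9.69% of all genes tested were. The cullin gene *cul-6* was not called, at 6.42, 5.55 and 4.38 CPM in *hrde-2* and 8.60, 16.01 and 8.63 CPM in *hrde-1*, against 7.87, 7.72 and 7.17 CPM in wild-type.

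The intracellular pathogen response list held 45 genes, of which 20 were tested. In *hrde-2* against *hrde-1*, edgeR called 3 of them lower, *skr-4*, *pals-23* and *eol-1*, with 18 of the 20 below 0 and a median of -0.84 on the log2 scale. DESeq2 called 6 lower, and 10 of the 20 were lower at an unadjusted p under 0.05, where 2.45% of all genes tested were called lower by edgeR and 10.2% were lower unadjusted. DESeq2 called 9.45% of all genes in either direction. The intestine markers were at 27830.0 to 43460.0 CPM in *hrde-2*, against 55060.0 to 92780.0 CPM in *hrde-1*, and their part was not tested. In *hrde-2* against wild-type edgeR called 2 lower, *skr-4* and *pals-4*, with 2 lower by DESeq2. At an unadjusted p under 0.05, 1 was higher and 5 were lower, where 13.5% and 14.3% of all genes tested were. Of the 20, 15 were below 0, with a median of -0.60. Over all genes tested edgeR called 4.25% lower and DESeq2 16% in either direction. In *hrde-1* against wild-type edgeR and DESeq2 called none, and the median was 0.31. There 2 were higher at an unadjusted p under 0.05, where 9.69% of all genes tested were. *pals-23*, of a family that controls this response, stood at 13.1, 10.3 and 11.2 CPM in *hrde-2*, against 24.9, 23.1 and 16.3 CPM in *hrde-1*. *eol-1*, which encodes a relative of decapping enzymes, stood at 0.107, 0.168 and 0.165 CPM in *hrde-2*, against 4.34, 1.20 and 0.320 CPM in *hrde-1*, where replicate 1 was far above the others. *pals-4* stood at 1.07, 0.672 and 0.909 CPM in *hrde-2*, against 6.29, 2.14 and 2.15 CPM in wild-type, with its highest value in wild-type replicate 1.

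Of 154 other F-box genes (the fbxb and fbxc families, *fog-2* and *ftr-1*), 20 were tested. In *hrde-2* against wild-type edgeR called 2 higher and 0 lower and DESeq2 3 higher and 0 lower, where 7.57% of all genes tested were called higher and 4.25% lower by edgeR. At an unadjusted p under 0.05, 3 were higher and 3 lower, where 13.5% and 14.3% of all genes tested were. DESeq2 called 16% of all genes in either direction. Of the 20, 13 were below 0, with a median of -0.33 on the log2 scale. In *hrde-1* against wild-type both tools called 1 higher, where edgeR called 1.24% of all genes higher and DESeq2 4.67% in either direction. Unadjusted, 4 were higher and 2 lower, where 9.69% and 8.56% of all genes tested were. Of the 20, 10 were below 0, with a median of -0.06. In *hrde-2* against *hrde-1* neither tool called any, with 0 higher and 2 lower at an unadjusted p under 0.05. Of all genes tested 10.2% were lower unadjusted there. *fbxb-97*, on chromosome II, was higher in both mutants, at 8.99, 6.47 and 9.67 CPM in *hrde-2* and 12.4, 15.5 and 15.9 CPM in *hrde-1*, against 2.10, 2.23 and 1.79 CPM in wild-type. Its log2 fold change was 2.02 ± 0.30 (SE) in *hrde-2* and 2.82 ± 0.30 (SE) in *hrde-1* (edgeR adjusted p 9.76e-04 and 1.86e-04). *fbxc-43* was higher in *hrde-2*, at 6.21, 6.30 and 7.11 CPM, against 2.36, 3.26 and 2.87 CPM in wild-type (log2 fold change 1.20, edgeR adjusted p 0.0255). *fog-2*, the founding kin, was not called, at 20.2, 22.1 and 27.6 CPM in *hrde-2* and 23.8, 23.3 and 21.6 CPM in *hrde-1*, against 17.1, 38.2 and 35.8 CPM in wild-type, and neither was *ftr-1*, at 14.02, 15.3 and 17.1 CPM in *hrde-2* and 13.9, 15.7 and 13.9 CPM in *hrde-1*, against 19.01, 21.4 and 24.2 CPM in wild-type.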

How the data were processed

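The sample titles gave genotypes and replicate numbers. The deposited files hold raw exon counts per gene, made by the authors from single-end reads (Trimmomatic 0.39, then HISAT2 2.2.1 on WormBase release WS258, then featureCounts of Subread 2.0.1). Per the file headers, multi-mapping reads and reads on more than 1 gene were dropped, and strand was ignored. Of the protein-coding members, 169 were found by symbol, and 1 took its RefSeq symbol because the symbol source gave 1 symbol to 2 genes. The symbols of the 52 pseudogenes came from RefSeq through the sequence name.

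Counts were fitted in R 4.3.3 with edgeR 4.0.16 (filterByExpr, 12141 genes kept, TMM scaling, robust quasi-likelihood fit, genotype as the only term, all 9 libraries). P-values were adjusted by Benjamini-Hochberg over all genes tested, and an adjusted p under 0.05 was called. Standard errors were derived from the F statistic. DESeq2 1.42.0, other scalings and filters, a replicate block and leaving out each library were alternatives. Figures were drawn with matplotlib 3.10.9. Deviations from genotype means of libraries with the same replicate number correlated at 0.114 to 0.249 between *hrde-2* and *hrde-1*, against -0.182 to 0.058 for other numbers. A block on the number was therefore tried for the mutants, a choice made from the data and not the labels. Against wild-type they ran from -0.253 to 0.199 and paired nothing. Libraries with unlike numbers reached 0.394, between wild-type replicate 2 and *hrde-2* replicate 3. Of the 9 libraries, 5 correlated best with their own number, so the pairing of the mutants is not established. The fit was tested on simulated data. Replicates of a genotype differed by more than counting error.

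Named are members called in any comparison, the 5 highest and 5 lowest fold changes of each, the 8 highest levels per length in wild-type, called genes of the related lists, and members with published roles. Other members named, such as *fbxa-224*, *fbxa-48*, *fbxa-67* and *fbxa-170*, were added after their values were seen. The members and lists were chosen with earlier results of these data known. Coordinates are those of the deposited files, counted from 1. Sequences of the members were not used here.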

Additional observations from a re-analysis of the deposited data

Results flagged for a closer look

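The effects of the mutants differed from each other in 3 members by the direct test of *hrde-2* against *hrde-1*. *fbxa-11* had a log2 fold change of -2.33, with 1.93, 1.68 and 1.90 CPM in *hrde-2* against 9.41, 8.01 and 10.3 CPM in *hrde-1*. *fbxa-26* had a log2 fold change of -1.36, with 3.74, 2.86 and 2.97 CPM in *hrde-2* against 10.5, 7.89 and 6.08 CPM in *hrde-1*. *fbxa-60* had a log2 fold change of -1.10, with 29.96, 21.4 and 26.6 CPM in *hrde-2* against 61.3, 62.8 and 43.4 CPM in *hrde-1*. All 3 lie on chromosome III, 2.83 to 3.23 Mb from *hrde-1*, and the cause was not tested.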

How the results depend on the processing

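The number of members called in *hrde-1* against wild-type, 1 as reported, was 4 without a filter on low counts and 2 by DESeq2, and it ranged between 1 and 13 when a library was left out. Over all genes tested, 1.55% were called as reported, 3.33% without a filter, 4.67% by DESeq2 and 0.841% to 13.2% with a library left out. In *hrde-2* against wild-type, 5 as reported, the number of members called was 3 with library size alone, 9 by DESeq2, 3 with only the 6 libraries compared and 2 at an adjusted p under 0.01, and it ranged between 1 and 13 when a library was left out. Over all genes tested, 11.8% were called as reported, 10.5% with library size alone and 16% by DESeq2. The share was 8.93% with only the 6 libraries compared and 5.02% to 22.3% with a library left out. In *hrde-2* against *hrde-1*, 3 as reported, the number of members called was 11 without a filter, 11 by DESeq2, 8 with only the 6 libraries compared and 1 at an adjusted p under 0.01, and it ranged between 1 and 12 when a library was left out. Over all genes tested, 5.67% were called as reported, 6.94% without a filter and 9.45% by DESeq2. The share was 11.8% with only the 6 libraries compared and 0.732% to 12.9% with a library left out. The highest count of each range came without wild-type replicate 1. The median log2 fold change of the members in *hrde-1* against wild-type, -0.15 as reported, was 0.0050 without a filter and between -0.20 and 0.0053 when a library was left out. In *hrde-2* it stayed between -0.51 and -0.34 against wild-type in every alternative and between -0.48 and -0.28 against *hrde-1*. With ribosomal RNA genes removed the summed level of the members was 862 CPM in *hrde-2*, 988 CPM in *hrde-1* and 1050.0 CPM in wild-type. The *hrde-2* libraries then overlapped those of both other genotypes. With library size alone the summed level was 634 CPM in *hrde-2*, whose libraries overlapped those of *hrde-1* but stayed below wild-type. Of the log2 fold changes of single genes, *fbxa-215* in *hrde-1* against wild-type changed sign without wild-type replicate 2, and ranged between -0.53 and 0.10 when a library was left out (-0.23 as reported). The causes were not tested.

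With the replicate block and all 9 libraries, 4 members were called in *hrde-2* against wild-type, 1 in *hrde-1* against wild-type and 4 in *hrde-2* against *hrde-1*. The shares over all genes tested were 11%, 1.27% and 4.27%. A run with the replicate block and the mutant libraries alone was added after seeing the data, because libraries of the same number deviated weakly together. That the numbers pair is not established. This run called 11 members in *hrde-2* against *hrde-1*, with 16.6% of all genes called. With 77 of the 109 expressed members under a mean of 5 CPM in wild-type, counting error limits single members. Reads shared by near-identical members were lost before deposit, and p-values rest on 3 libraries a genotype.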
